A study of Mus musculus with 32 samples.

Results

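Autophagy is the pathway by which a cell encloses its own proteins and organelles in a double membrane and delivers them to lysosomes. The genes described here are 38 mouse genes of its core machinery and its cargo receptors, taken by symbol, and all 38 were found among the 24013 genes of a stage table and among the 22536 genes of each of 2 knockdown tables. They were grouped by role into the ULK1 initiation complex (5 genes), the class III PI3-kinase complex (6), the ATG9, ATG2 and WIPI proteins that supply membrane (5), the conjugation machinery (10), the ATG8 family (5) and cargo receptors (7). The study measured polyadenylated RNA from eggs, embryos before implantation and embryonic stem cells of the mouse with a modified Smart-seq2 protocol, which copies full-length cDNA from very few cells.

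The stage table covered MII oocytes of C57BL/6N females taken 20 h after hCG (2 samples), and embryos as zygotes and at the early 2-cell, 2-cell, 4-cell and 8-cell stages (2 samples each), from superovulated C57BL/6N females crossed with DBA/2N males. It also held the inner cell mass (ICM), which immunosurgery had freed from blastocysts (3 samples), and embryonic stem cells of the R1 line, a single line grown in serum with LIF (mESC, 2 samples). In this table the authors deposited 1 value per gene and stage, so a difference between stages has no replicate error and no test. The knockdown tables held 1 column per library of embryos injected with siRNA and cultured in CZB medium with glutamine. At the 8-cell stage 4 control libraries were compared with 4 of Nr5a2 knockdown, and in blastocysts 3 control libraries with 4 of Gata4 knockdown, all of them injected embryos with no uninjected group. Nr5a2 is an orphan nuclear receptor and Gata4 a zinc finger factor of primitive endoderm.

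Autophagosomes start when the ULK1 kinase complex activates a lipid kinase built around Pik3c3 and Becn1. Atg9a vesicles and the lipid transfer proteins Atg2a and Atg2b then feed a growing membrane, on which the conjugation enzymes attach ATG8 proteins to lipid. Receptors such as Sqstm1, Tex264 and Bnip3l hold cargo to these ATG8 proteins. In the mouse embryo autophagy is induced after fertilization, and embryos that lack Atg5 from both the egg and the sperm stop before the blastocyst forms.

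Values are FPKM, fragments per kilobase of transcript scaled to library size, so levels may be set beside each other between genes within 1 table. The tables were normalized separately and no test was made across them. Total FPKM was 234738 to 495643 per stage, 285293 to 308689 in the 8-cell knockdown libraries and 237292 to 366359 in the blastocyst libraries, and replicates correlated at 0.926 to 0.958 and at 0.923 to 0.976 in the knockdown tables. Read totals were not given, and relative depth in the 8-cell knockdown libraries, read from the steps between low values, differed by up to 2.89-fold. The 6 oocyte markers summed to 5244 FPKM in MII oocytes and the 6 pluripotency markers to 642 FPKM in the ICM, but the ICM also held all 7 trophectoderm markers at 1 FPKM or more (sum 171 FPKM, Krt8 62.7 FPKM). None of 7 fibroblast feeder markers reached 1 FPKM in mESC. Of 7 cumulus cell markers only Cyp19a1 reached 1 FPKM in the stage table. It was 24.7 FPKM in MII oocytes, 12.8 FPKM in zygotes and 10.2 FPKM at early 2-cell. The injected blastocysts were whole embryos by their markers, with trophectoderm sums of 2202 to 4471 FPKM. In such bulk samples, fewer cells of a type and less RNA per cell cannot be told apart.

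Near-identical copies of 4 members exist in the genome, so the values of Atg4a, Bnip3, Bnip3l and Gabarapl2 are uncertain. The exons of Becn1 overlap those of Cntd1 on the opposite strand over 43.9% of their bases, and those of Gabarapl1, Bnip3, Atg4d, Uvrag and Sqstm1 overlap another gene over 17.3% to 28.3%. Atg9a shares 31.8% of its exon bases with a processed transcript on its own strand. Whether counting used strand is not given in the sources used here, so these values may hold reads of the partner.

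Between the egg and the ICM, the autophagy genes had their highest levels at different stages. Of the 34 members with 5 FPKM or more at some embryo stage, 9 had their highest value at the 4-cell stage (26.5%, against 13.05% of all genes) and 8 at the 8-cell stage (23.5%, against 11.1%). The egg held the highest value of 8 members (23.5%, against 27.4% of all genes), among them Atg5 (253 FPKM), Becn1 (71.9 FPKM), Nbr1 (59.2 FPKM) and Atg16l1 (99.9 FPKM). The ICM held the highest value of 6 (17.65%, against 23.0%), namely Atg13, Atg4c, Gabarapl2, Sqstm1, Optn and Tex264. The other 3 were Atg4a and Atg12, highest in the zygote, and Uvrag, highest at early 2-cell. The shares for 4-cell and 8-cell were above those of all genes. Those for the egg and the ICM were closer to the shares of all genes, and none of these shares was tested. At least 1 FPKM was reached by 33 of the 38 from the egg to the 4-cell stage, by 36 at the 8-cell stage and in the ICM, and by 29 in mESC, where the share of all genes was 34.9% to 39.9% per stage.

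**Figure D1:**
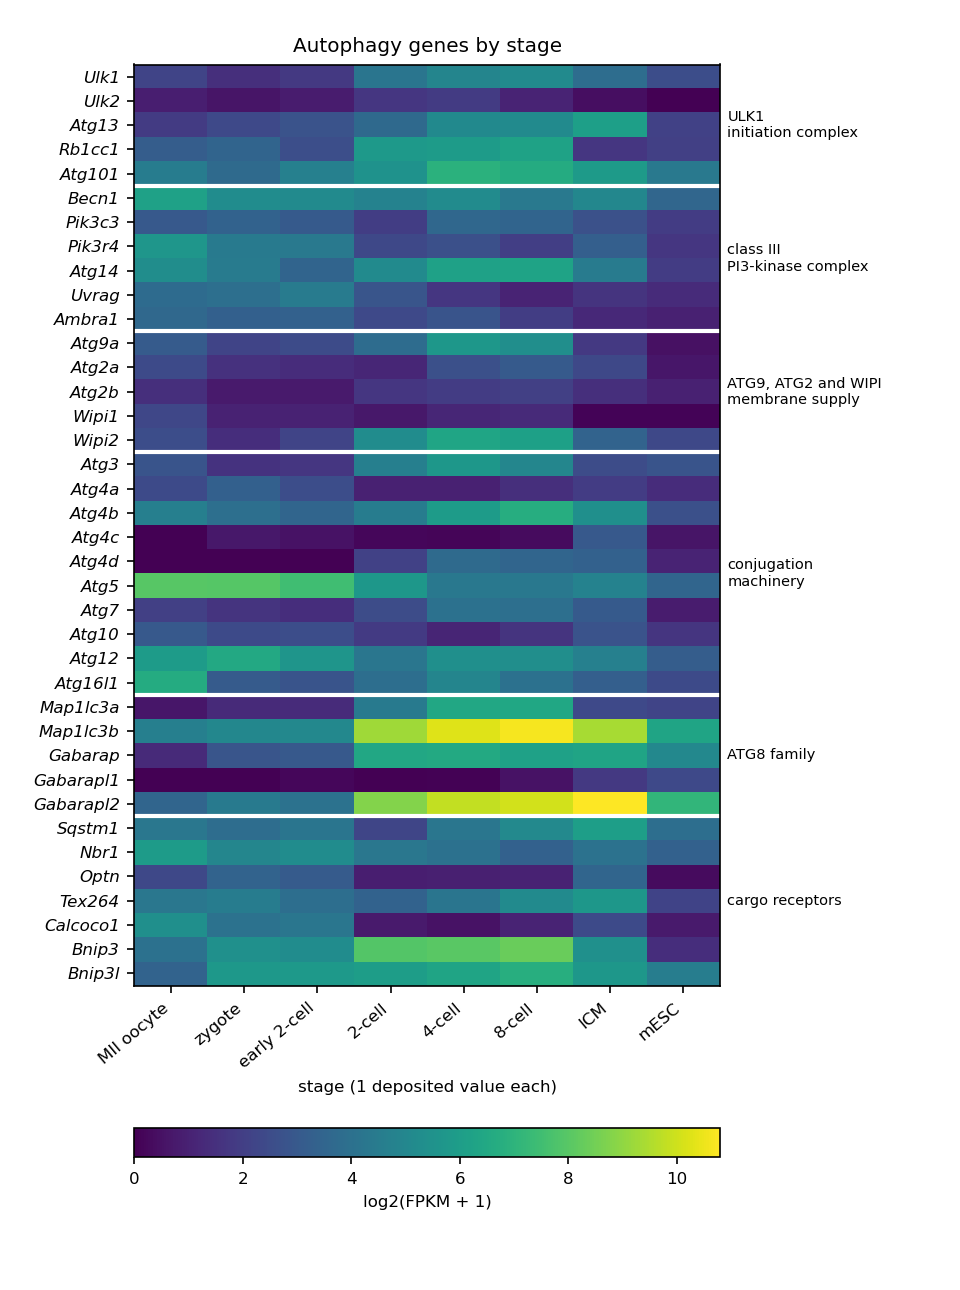
Levels of the 38 autophagy genes as log2(FPKM + 1), color scale, in rows grouped by role, with 1 column per stage and 1 deposited value in each cell. Map1lc3b and Gabarapl2 are the brightest rows from the 2-cell stage to the ICM, while Atg5 is brightest in the egg and zygote.

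A difference between neighbouring stages was counted when it was at least 1 in log2(FPKM + 1) with at least 5 FPKM in the higher stage, called the fold rule here. The same rule was applied to all genes with at least 1 FPKM in either stage. From the MII oocyte to the zygote 4 of 34 members were higher (8.19% of all genes) and 4 were lower (14.1%). Higher were Gabarap, Optn, Bnip3 and Bnip3l, and lower were Pik3r4, Atg3, Atg16l1 and Calcoco1. From the zygote to the early 2-cell embryo none of 33 was higher (3.26% of all genes) and only Atg14 was lower (5.22%). The step from the early 2-cell to the 2-cell embryo, across the main activation of the mouse embryonic genome, had 12 of 36 members higher (22.7%) and 8 lower (22.4%). Higher were Ulk1, Rb1cc1, Atg14, Atg9a, Wipi2, Atg3, Atg16l1, Bnip3 and the ATG8 genes Map1lc3a, Map1lc3b, Gabarap and Gabarapl2. Lower were Pik3c3, Pik3r4, Uvrag, Atg5, Atg12, Sqstm1, Optn and Calcoco1.

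The next step went mostly 1 way. From 2-cell to 4-cell, 16 of 34 members were higher (15.3% of all genes) and 2, Uvrag and Atg5, were lower (11.0%). After each stage was scaled to a common median 9 were higher, namely Atg13, Atg101, Pik3c3, Atg9a, Atg4b, Atg4d, Atg7, Map1lc3a and Sqstm1. With this scaling the median difference was 0.86 for the members and -0.02 for all genes. The share of all genes past the rule was not counted with this scaling, here or at later steps. The other 7 of the 16 were Atg14, Atg2a, Wipi2, Atg3, Atg12, Atg16l1 and Map1lc3b. From 4-cell to 8-cell none of 36 was past the fold rule in either direction (4.30% higher and 6.06% lower among all genes). With scaled medians Tex264 was higher in this step. From the 8-cell embryo to the ICM 4 of 38 were higher (17.8%), namely Pik3r4, Atg4c, Atg10 and Optn, and 11 were lower (14.0%). The lower ones were Ulk1, Rb1cc1, Atg14, Atg9a, Wipi2, Atg3, Atg4b, Map1lc3a, Map1lc3b, Bnip3 and Bnip3l. From the ICM to mESC none of 36 was higher (7.16%) and 22 were lower (25.0%). In that last step the median of all genes was -0.54 and that of the members -1.36. With scaled medians these became 0.19 and -0.68, and the members past the rule became 12 lower and 1 higher, the latter being Gabarapl1. The 12 were Atg13, Atg14, Atg4b, Atg4c, Atg4d, Atg7, Map1lc3b, Gabarapl2, Sqstm1, Optn, Tex264 and Bnip3, and as deposited Ulk1, Atg101, Becn1, Pik3r4, Wipi2, Atg5, Atg10, Atg12, Gabarap and Bnip3l were lower too.

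In the ULK1 complex, the kinase that starts the process, the summed level was 37.4 FPKM in the egg, 243 FPKM at both the 4-cell and the 8-cell stage, and 31.0 FPKM in mESC. Atg101, an adaptor that stabilizes the complex, had the highest mean level of the group. It stood at 22.1 FPKM in the egg, 12.3 in the zygote, 25.4 and 44.5 in early and later 2-cell embryos, 118 and 97.8 at 4-cell and 8-cell, 57.5 in the ICM and 19.8 in mESC. Rb1cc1, the scaffold also called FIP200, had the widest range. Its levels were 8.07, 10.1 and 5.00 FPKM up to the early 2-cell stage, then 55.9, 59.1 and 73.7 FPKM from 2-cell to 8-cell, and 2.29 and 3.07 FPKM in the ICM and mESC. The kinase Ulk1 had the same shape, from 2.43 FPKM at early 2-cell to 35.4 FPKM at 8-cell and 13.6 FPKM in the ICM, while its relative Ulk2 never passed 2.65 FPKM. Atg13, the adaptor that joins kinase and scaffold, was different: it was still higher in the ICM (66.7 FPKM) than at 8-cell (35.3 FPKM), by less than the fold rule, and stood at 3.21 FPKM in mESC.

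The members of the PI3-kinase complex, which makes the lipid mark of the new membrane, did not share 1 course. Their sum was 191 FPKM in the egg, 78.9 FPKM at 2-cell, 132 FPKM at 4-cell and 21.3 FPKM in mESC. Atg14, the subunit that directs the kinase to new autophagosomes, stood at 38.04 FPKM in the egg and 10.1 FPKM at early 2-cell, then at 35.0, 71.2 and 75.6 FPKM at 2-cell, 4-cell and 8-cell. Uvrag, which takes the place of Atg14 in the endosomal form of the kinase, ran the other way, from 21.6 FPKM at early 2-cell to 6.20, 2.23 and 1.08 FPKM at the same 3 stages. Between these stages both differences were past the fold rule from early 2-cell to 2-cell and from 2-cell to 4-cell, for Atg14 upward and for Uvrag downward, and with median scaling the second step of Atg14 was not. Pik3r4, the regulatory subunit, was 49.6 FPKM in the egg, 19.4 FPKM at early 2-cell and 4.00 FPKM at 2-cell. The catalytic subunit Pik3c3 and the core subunit Becn1 stayed between 2.81 and 11.2 FPKM and between 11.0 and 71.9 FPKM.

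The proteins that supply membrane were low before the 2-cell stage. Their sum was 9.06 FPKM in the zygote, 54.1 FPKM at 2-cell, 140.3 FPKM at 4-cell and 18.3 FPKM in the ICM. Wipi2, which binds the lipid mark and brings in Atg16l1, made up most of it from the 2-cell stage on, with 1.69 FPKM in the zygote, 36.8 at 2-cell, 79.6 at 4-cell, 70.4 at 8-cell and 9.82 in the ICM. Atg9a, the membrane protein of the seed vesicles, had the widest range, from 3.69 FPKM in the zygote to 51.4 FPKM at 4-cell, 2.49 FPKM in the ICM and 0.392 FPKM in mESC. The other 3 genes stayed below 8 FPKM: Atg2a reached 7.40, Atg2b 3.08 and Wipi1 3.99 FPKM.

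In the conjugation machinery Atg5, Atg12 and Atg16l1 form the complex that attaches ATG8 proteins to lipid, and each had its highest level in the egg or the zygote. Atg5 had 253 FPKM in the egg, 246 in the zygote, 178 at early 2-cell and 51.1 at 2-cell, and then 18.8 FPKM at both 4-cell and 8-cell, 26.9 in the ICM and 10.6 in mESC. Atg12 stood at 60.8 and 89.8 FPKM in the egg and zygote, at 18.1 FPKM at 2-cell and at 40.5 FPKM at 4-cell. Atg16l1 was lower already in the zygote than in the egg, with 99.9 and 7.70 FPKM, a difference of -3.54 on the log2(FPKM + 1) scale. The upstream enzymes had no common course. Atg3, which hands the ATG8 protein to the complex, was 1.99 FPKM in the zygote and 52.3 FPKM at 4-cell, and Atg7, which activates it, was 1.67 FPKM at early 2-cell and 15.1 FPKM at 4-cell. Atg10, which joins Atg12 to Atg5, was instead highest in the egg (7.21 FPKM) and lowest at 4-cell (1.18 FPKM), with 5.84 FPKM in the ICM.

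The 4 ATG4 proteases, which trim ATG8 proteins and release them from lipid, had 4 different courses. Atg4b was the most abundant, with 10.6 FPKM at early 2-cell, 22.2 at 2-cell, 59.1 at 4-cell and 105 at 8-cell. Atg4d was listed near 0 up to the early 2-cell stage and stood at 3.24, 12.2 and 10.6 FPKM at 2-cell, 4-cell and 8-cell. Atg4a was highest in the zygote (9.05 FPKM), and Atg4c was below 1 FPKM at all stages but the ICM, where it was 7.13 FPKM.

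The ATG8 family, the ubiquitin-like proteins that coat the autophagosome and bind the receptors, had the highest sum of the 6 role groups from the 2-cell stage on. Its summed level was 36.7 FPKM in the egg, 59.5 in the zygote, 56.7 at early 2-cell, 1165 at 2-cell, 2312 at 4-cell, 2825 at 8-cell, 2530.2 in the ICM and 254 in mESC. The sum was thus low before the 2-cell stage and high from there to the ICM. Map1lc3b, the LC3 protein used most often as a marker of autophagosomes, was 32.2 FPKM at early 2-cell, 607 at 2-cell, 1234 at 4-cell, 1596 at 8-cell, 662 in the ICM and 77.6 in mESC. Gabarapl2, also called GATE-16, was 15.8 FPKM at early 2-cell, 449 at 2-cell, 896 at 4-cell, 1072 at 8-cell, 1783 in the ICM and 136 in mESC. It had the widest range of all 38 genes, 7.26 on the log2(FPKM + 1) scale, and its value is 1 of those that near-identical copies make uncertain.

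The family's make-up in the ICM and mESC differed from that at the earlier stages. Map1lc3b gave 52.1% to 65.6% of the family's FPKM from the egg to the 8-cell stage but 26.2% in the ICM and 30.5% in mESC, where Gabarapl2 gave 70.45% and 53.6%. Map1lc3a was 20.3 FPKM at 2-cell, 87.7 at 4-cell and 84.6 at 8-cell, and 4.29 FPKM in the ICM, a difference of -4.02 from 8-cell on the log2(FPKM + 1) scale. Gabarap was 7.02 FPKM at early 2-cell and 88.8 FPKM at 2-cell, and lay between 72.6 and 93.8 FPKM from there to the ICM. Gabarapl1 was at most 0.449 FPKM from egg to 8-cell and reached 4.29 FPKM in mESC.

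**Figure D2:**
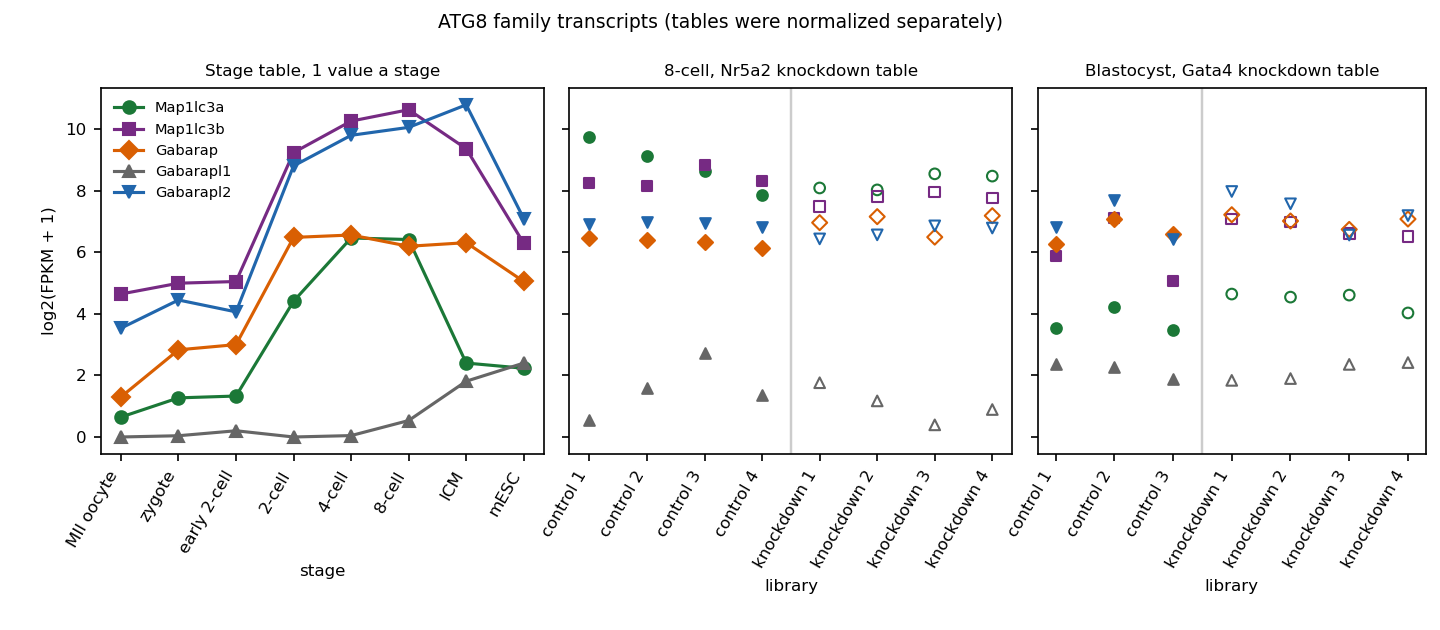
ATG8 family transcripts as log2(FPKM + 1) by stage (left, 1 deposited value each) and in every library of the 8-cell table (middle) and blastocyst table (right), with filled symbols for controls and the stage table and open symbols for knockdowns. In the stage table Map1lc3b and Gabarapl2 are far higher at 2-cell (607 and 449 FPKM) than at early 2-cell (32.2 and 15.8 FPKM).

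The cargo receptors did not share 1 course. Bnip3, a mitochondrial outer membrane receptor, was 15.4 FPKM in the egg, 36.7 at early 2-cell, 239, 263 and 326 at 2-cell, 4-cell and 8-cell, 42.4 in the ICM and 1.64 in mESC. Its relative Bnip3l, or NIX, was 9.79 FPKM in the egg and 53.8 FPKM in the zygote, and 109 FPKM at 8-cell. Sqstm1, the p62 receptor of ubiquitinated proteins, was 17.2 FPKM at early 2-cell, 3.85 at 2-cell, 17.6 at 4-cell, 33.2 at 8-cell and 65.0 in the ICM. The aggregate receptor Nbr1 was highest in the egg (59.2 FPKM) and lowest in mESC (9.27 FPKM). Optn, which binds ubiquitin on damaged mitochondria, was 0.857, 0.957 and 1.06 FPKM from 2-cell to 8-cell and 10.6 FPKM in the ICM, and Calcoco1, a receptor for endoplasmic reticulum and Golgi, was 40.3 FPKM in the egg and 0.724 FPKM at 2-cell. Tex264, a receptor in the membrane of the endoplasmic reticulum, was 18.4, 22.0 and 14.0 FPKM in egg, zygote and early 2-cell embryo, 9.42 at 2-cell, 17.1 at 4-cell, 34.6 at 8-cell, 51.1 in the ICM and 3.47 in mESC. As deposited, its difference passed the fold rule only from ICM to mESC, at -3.54 on the log2(FPKM + 1) scale. The step from 4-cell to 8-cell was just below it, at 0.97, and passed with scaled medians.

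Other genes of the pathway came from 4 lists of 54 genes that hold no member. By the same fold rule, 4 of 48 compared were higher (8.19% of all genes) and 8 lower (14.1%) from egg to zygote, and 1 of 47 was higher (3.26%) and 2 lower (5.22%) from there to early 2-cell. At the next step 13 of 50 were higher (22.7%) and 8 lower (22.4%), and from 2-cell to 4-cell 15 of 49 were higher (15.3%) and 1 lower (11.0%). Then 5 of 51 were higher (4.30%) and 3 lower (6.06%) from 4-cell to 8-cell, and 3 of 51 higher (17.8%) and 15 lower (14.0%) from there to the ICM. From ICM to mESC 2 of 47 were higher (7.16%) and 18 lower (25.0%). One of the lists holds 8 phagophore partners. Wdr45 and Wdr45b, the other WIPI-type proteins, were 1.32 and 2.92 FPKM at early 2-cell and 216 and 177 FPKM at 8-cell. Tmem41b, a lipid scramblase of the endoplasmic reticulum, was 73.9 and 633 FPKM at these stages. Rubcn, an inhibitor of the PI3-kinase complex, was 151 FPKM in the egg, 15.6 at early 2-cell and 1.13 at 8-cell.

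A further list holds 16 genes for fusion of autophagosomes with lysosomes. Lamp2, a lysosomal membrane protein, was 5.89 FPKM at early 2-cell, 174 at 2-cell and 265 at 8-cell. Rab7, the GTPase of late endosomes, was highest at early 2-cell (690.3 FPKM) and was 154 FPKM at 2-cell. The SNARE Vamp8 was 9.24 FPKM in the egg and 157 FPKM at 8-cell, while Vps39, a tethering subunit, was 30.6 FPKM in the egg and 2.28 FPKM at 8-cell.

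The signalling list holds 14 genes. Tfeb, the transcription factor of lysosomal and autophagy genes, was listed at 0 in the egg and zygote and stood at 0.477 FPKM at 2-cell, 6.75 at 4-cell, 19.0 at 8-cell and 2.58 in the ICM. Its relative Tfe3 ran the other way, from 70.3 FPKM in the egg to 12.5 at early 2-cell and 4.60 at 8-cell. Foxo3, a further transcription factor of autophagy genes, was 26.8 FPKM in the egg and 0.0947 FPKM in mESC, and the mTORC1 inhibitor Tsc1 was 18.5 and 0.511 FPKM. Among the other receptors, Ncoa4, which carries ferritin, was 122 FPKM at early 2-cell and 10.3 FPKM at 2-cell. Ccpg1, a receptor of the endoplasmic reticulum, was 8.37 FPKM at early 2-cell, 56.9 at 4-cell and 1.38 in mESC, Tollip was 63.7, 6.47 and 34.8 FPKM in egg, early 2-cell and 4-cell embryo, and Bcl2l13 was 25.1 FPKM at 4-cell and 1.59 FPKM in mESC.

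TFEB binds a site whose core is the E-box CACGTG, and these letters were searched in 300-base windows from 250 bases before to 50 after each start, on both strands. RefSeq promoters of GRCm38.p6 were found for 31 of the 38 members, and Becn1, Atg12, Rb1cc1, Atg16l1, Bnip3l, Pik3c3 and Map1lc3a had no entry. The E-box was in windows of 5 members, in 5 of 35 windows, against 7.15% of 32851 windows of all genes. The letters AGATAA, which GATA factors bind, were in windows of 2 members, Atg4a and Atg4d (11.2% of all windows). The bases around each E-box are shown because they are the stretches the match rests on, with the E-box in capitals, read on the gene's own strand.
Atg14: aaaatccCACGTGactggcc
Atg3: cttttgtCACGTGtcctggg
Atg3 second match: gtcgagtCACGTGaggcctt
Atg5: cgcttgcCACGTGgtcttgg
Atg7: tggtggtCACGTGtgcagta
Bnip3: cgcgccgCACGTGccacacg
In the same order they lie at chr14:47568423-47568442 on the minus strand, chr16:45158728-45158747 and chr16:45158751-45158770 on the plus strand, chr10:44268318-44268337 on the plus strand, chr6:114670957-114670976 on the plus strand and chr7:138909602-138909621 on the minus strand. Their genes had no shared course, since Atg5 was highest in the egg, Atg3 and Atg7 at 4-cell, and Atg14 and Bnip3 at 8-cell.

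Nr5a2 knockdown and control embryos were compared at the 8-cell stage. Tex264, the receptor of the endoplasmic reticulum, was the 1 autophagy gene that passed the test: it fell from 76.9 ± 13.3 FPKM (SD, n = 4) in controls to 19.0 ± 12.2 FPKM (SD, n = 4). No other member tested rose or fell. Outside the members, Tfeb and the mitochondrial kinase Pink1 fell. The targeted gene was checked first. Controls 1 to 4 had 23.6, 20.3, 13.1 and 25.2 FPKM of Nr5a2, and knockdowns 1 to 4 had 3.76, 4.25, 6.72 and 6.60 FPKM, so all knockdown libraries were below all controls. Its log2 fold change was -1.76 (SE 0.27, limma with Benjamini-Hochberg adjustment, adjusted p = 0.0143). By exact permutation, two-sided, p was 0.0286, the lowest possible with 4 libraries against 4.

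Of the 38 members 34 passed the filter of 1 FPKM in 4 libraries and were tested among 8170 genes, while Ulk2, Atg4a, Atg4c and Optn were too low. By limma with Benjamini-Hochberg adjustment 0 of 34 rose (1.57% of all genes tested) and 1 fell (0.698%). At an unadjusted p under 0.05 there were 12 of 34 members (20.6% of all genes). Groups did not overlap for 5 members that were higher in the knockdown, namely Atg13, Atg5, Atg12, Gabarap and Nbr1 (8.38% of all genes), and for 3 that were lower, namely Tex264, Wipi2 and Map1lc3b (3.45%). The median log2 fold change of the members was -0.11, beside 0.12 for all genes tested, and 21 of the 34 values were negative (39.5% of all genes). With libraries scaled to a common median these medians were -0.22 and 0.02, 23 values were negative (48.4% of all genes), and of all genes 75 rose and 80 fell, beside 128 and 57 as deposited. No label says that the libraries came from separate cultures or litters. The p-values therefore measure the spread between the samples alone, and that spread may be technical.

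Tex264 was on the list of members with its fall in these libraries already known, so the test describes it and adds no independent support. Its level was 78.3, 71.6, 94.5 and 63.2 FPKM in controls 1 to 4 and 8.02, 14.5, 36.4 and 17.0 FPKM in knockdowns 1 to 4. All 4 knockdown libraries were below the lowest control, and knockdown 3 was the highest of them. Nr5a2 in knockdowns 1 to 4 was 3.76, 4.25, 6.72 and 6.60 FPKM, and a link between the levels of these genes was not tested. On the log2(FPKM + 1) scale the fold change was -2.14 (SE 0.35, limma, adjusted p = 0.0166). It no longer passed without control 1 (adjusted p = 0.0611), without knockdown 2 (0.0507) and with no filter on low values (0.107), at fold changes of -2.12, -2.08 and -2.14.

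Tex264 lies on the minus strand of chromosome 9. The 250 bases before its start in RefSeq, chr9:106685953-106686202 in GRCm38.p6, are shown because the fall of this transcript is the one result among the members that passed the test, with the letters of each CG pair in capitals.
Tex264: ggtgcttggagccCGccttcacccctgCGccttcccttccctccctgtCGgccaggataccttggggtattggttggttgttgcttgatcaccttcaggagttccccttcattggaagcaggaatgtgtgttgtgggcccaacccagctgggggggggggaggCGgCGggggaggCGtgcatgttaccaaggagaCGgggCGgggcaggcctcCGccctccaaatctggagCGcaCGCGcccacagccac
The stretch held 12 CG pairs and 65.2% G and C, and 250 bases before a second RefSeq start (chr9:106685817-106686066) held 29 and 74.8%. Over promoters of all genes the medians were 6 CG pairs and 52.4%, and over 35 promoters of members 15 and 59.6%. The letters CAAGGTCA, the core of the NR5A2 site, were on neither strand of the 300-base window of Tex264 or of any of the 31 members with a promoter entry, and in 1.56% of all windows. Their absence says only that these letters are not in these windows.

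The other initiation genes were mixed. Atg13, the adaptor of the ULK1 complex, was 21.4, 22.1, 25.5 and 25.4 FPKM in controls and 39.1, 36.1, 39.2 and 43.3 FPKM in knockdowns. Every knockdown library was above every control, but the log2 fold change of 0.72 (SE 0.17) had an adjusted p of 0.052 by limma and missed the threshold. Ulk1, Rb1cc1 and Atg101 had values of -0.10, -0.46 and -0.44 with overlapping groups. In the PI3-kinase complex the regulatory subunit Pik3r4 had the highest value, 1.05 (SE 0.37, limma adjusted p = 0.146), with overlapping groups, and the other 5 lay between -0.42 and 0.39.

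All 5 genes of membrane supply had negative values in this fit, with a median of -0.61, and none passed the test. The values were also negative with scaled or quantile-normalized libraries. Among all genes, 39.5% of values were negative as deposited and 48.4% with scaled medians. Their summed level was 241, 196, 177 and 182 FPKM in controls and 106, 103, 165 and 119 FPKM in knockdowns. The sums did not overlap, with knockdown 3 again the highest of its group, while the sums of every other role group overlapped. The lowest control (177 FPKM) and the highest knockdown (165 FPKM) lay close. Wipi2 and Atg9a were the largest parts of the sum in every library. How often sums of other genes are without overlap was not counted. Of the 5 genes only Wipi2 had groups without overlap. Wipi2, which links the lipid mark to the conjugation complex, was 95.8, 90.7, 97.9 and 90.2 FPKM in controls and 43.7, 51.3, 83.1 and 38.1 FPKM in knockdowns. Its log2 fold change was -0.84 (SE 0.22, limma adjusted p = 0.0742), which passed only when knockdown 3 was left out (-1.07, adjusted p = 0.0133). Atg9a, Atg2a, Atg2b and Wipi1 had values of -0.66, -0.34, -0.08 and -0.61 with overlapping groups.

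In the conjugation machinery Atg12, the ubiquitin-like partner of Atg5, was 16.1, 16.5, 19.4 and 23.2 FPKM in controls and 38.2, 39.2, 27.7 and 33.0 FPKM in knockdowns. The groups did not overlap, and the log2 fold change was 0.84 (SE 0.20, limma adjusted p = 0.0534). It passed the threshold without knockdown 3 (0.94, adjusted p = 0.0438). Atg5 had 0.56 (SE 0.22, adjusted p = 0.184) and Atg16l1, the third protein of that complex, 0.44 (SE 0.27, adjusted p = 0.372). The protease Atg4b was on the other side, at -0.51 (SE 0.20, adjusted p = 0.182).

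Map1lc3b and Gabarap, of the LC3 and the GABARAP branch of the ATG8 family, had values of opposite sign. Gabarap alone of the 5 family genes was positive, and Gabarapl1 and Gabarapl2 of its branch were negative. Map1lc3b was 303, 288, 461 and 322 FPKM in controls and 180.1, 223, 248 and 217 FPKM in knockdowns, all 4 below the lowest control, and its log2 fold change was -0.64 (SE 0.18; adjusted p = 0.0808 by limma). Gabarap was 88.5, 83.1, 80.8 and 69.9 FPKM in controls and 124, 142, 89.4 and 146 FPKM in knockdowns. Here the lowest knockdown was above the highest control, and the log2 fold change was 0.61 (SE 0.18; adjusted p = 0.105 by limma). Neither of these differences passed the threshold, and the difference between the genes was not tested.

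Map1lc3a spanned 235 to 864 FPKM among the controls alone (864, 563, 403 and 235 FPKM) and was 273, 261, 375 and 357 FPKM in the knockdowns, at a fold change (log2) of -0.57 (SE 0.32; adjusted p = 0.342 by limma). The groups overlapped, and the knockdowns lay within the range of the controls. Gabarapl2 was 121, 127, 124 and 113 FPKM and 85.9, 94.2, 116 and 110.0 FPKM (-0.26, SE 0.15, adjusted p = 0.350). Gabarapl1 was 0.467, 2.01, 5.66 and 1.57 FPKM and 2.397, 1.26, 0.315 and 0.858 FPKM (-0.50, SE 0.43, adjusted p = 0.538). For both genes the groups overlapped.

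**Figure D3:**
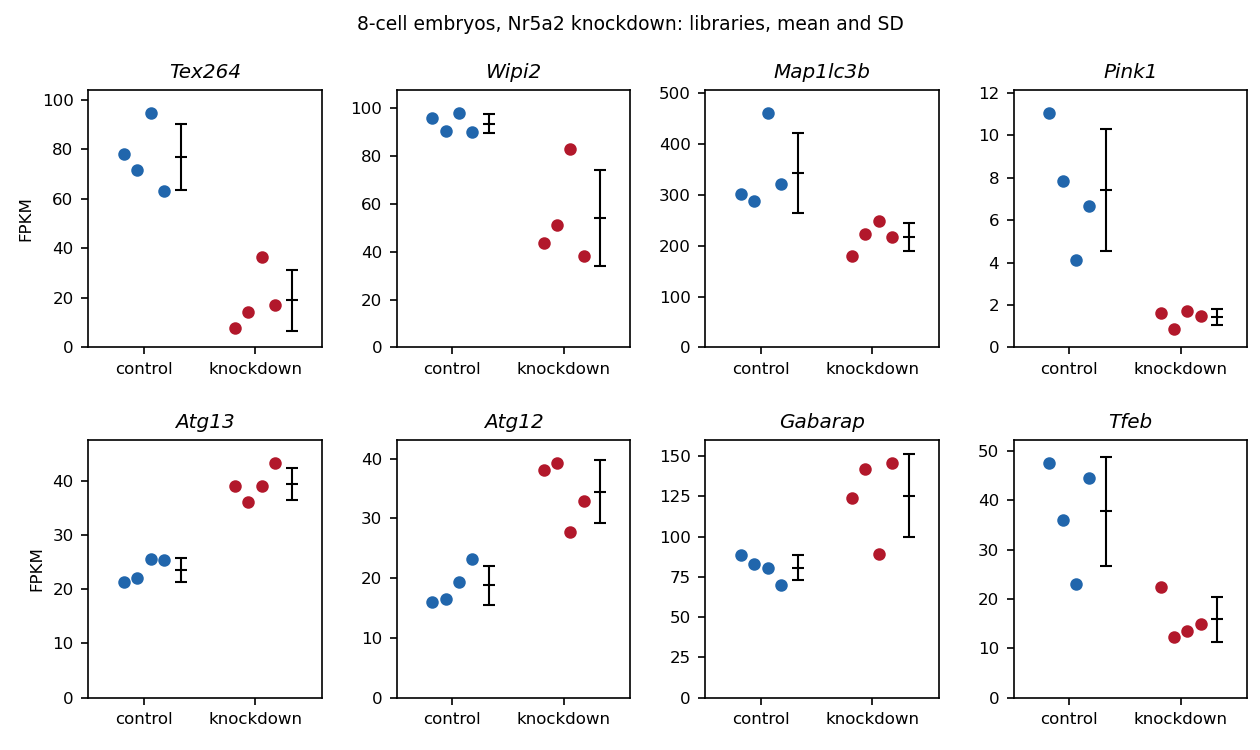
FPKM in every 8-cell library of control (blue) and Nr5a2 knockdown (red), with the mean and SD of 4 libraries as bars, for 6 autophagy genes and for Pink1 and Tfeb, each panel with its own axis from 0. All 4 knockdowns lie below all controls for Tex264, Wipi2, Map1lc3b, Pink1 and Tfeb, and above them for Atg13, Atg12 and Gabarap.

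Of the cargo receptors besides Tex264, Nbr1 had 0.49 (SE 0.22, limma adjusted p = 0.228) with groups that did not overlap. Sqstm1 had 0.66 (SE 0.39, adjusted p = 0.367) with groups that did. Bnip3, Bnip3l and Calcoco1 lay at 0.13, -0.12 and -0.37. The receptors for mitochondria on the member list thus had intervals that include 0, from -0.31 to 0.57 for Bnip3 and from -0.67 to 0.43 for Bnip3l (95%).

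Among the 46 genes tested of the 4 further lists, none rose (1.57% of all genes tested) and 2 fell (0.698%). Tfeb, in the signalling list (0 rose and 1 fell of 12 tested), was 47.5, 36.0, 23.0 and 44.6 FPKM in controls and 22.4, 12.4, 13.5 and 15.0 FPKM in knockdowns. Its log2 fold change was -1.19 (SE 0.27, limma adjusted p = 0.0443), a call that was lost in 9 of 14 alternative settings (highest adjusted p = 0.148). Pink1, the kinase that marks damaged mitochondria, in the list of other receptors (0 rose and 1 fell of 12), was 11.0, 7.82, 4.13 and 6.67 FPKM in controls and 1.62, 0.875, 1.74 and 1.49 FPKM in knockdowns. Its log2 fold change was -1.74 (SE 0.29, limma adjusted p = 0.0166), and the call was lost in 5 of 14 settings (highest adjusted p = 0.0937). For both genes every knockdown was below every control (3.45% of all genes tested). None of 8 phagophore partners and none of 14 fusion genes tested passed the threshold.

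Markers of cell identity were read in the same libraries, and their sums overlapped between the groups. A sum can hide a single marker. Gata3, on the trophectoderm list, was 0.182, 3.36, 2.51 and 2.42 FPKM in controls and 13.2, 11.0, 4.87 and 7.05 FPKM in knockdowns. Its groups did not overlap (8.38% of all genes tested were higher without overlap). The rest of that list did not share this pattern. Tfap2c spanned 47.3 to 72.3 FPKM in controls and 29.0 to 62.6 FPKM in knockdowns, and Krt8 3.64 to 25.9 FPKM and 14.8 to 26.6 FPKM. Cdx2, Krt18 and Eomes overlapped as well, and Elf5 was listed at 0 in all 8 libraries. The summed pluripotency markers were 122 to 223 FPKM in controls and 48.7 to 157 FPKM in knockdowns, with 5 of 6 at 1 FPKM or more in each control and 4 or 5 in each knockdown. The trophectoderm markers were 82.4 to 109 FPKM and 105 to 142 FPKM, with 3 to 5 and 4 to 6 of 7 at 1 FPKM or more, and the oocyte markers 24.4 to 39.0 FPKM and 18.0 to 42.8 FPKM. The primitive endoderm markers summed to 27.6 to 36.9 FPKM and 14.3 to 30.0 FPKM, with Foxa2 listed at 0 in all 8 libraries. Cumulus cell and fibroblast markers were all below 1 FPKM in these libraries. The part of these markers in the fall of Tex264, Tfeb and Pink1 was not tested.

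Gata4 knockdown and control embryos were compared as blastocysts, and no autophagy gene rose or fell. The highest fold changes belonged to the 2 LC3 genes, Map1lc3b and Map1lc3a, and neither passed the test. Gata4 itself was 3.18, 0.716 and 5.44 FPKM in the 3 controls, and 0.368 FPKM in knockdown 2 and listed at 0 in knockdowns 1, 3 and 4. It was too low for the fit, and by exact permutation, two-sided, p was 0.0571, the lowest possible with 3 libraries against 4. The libraries were of 2 types: Rn45s, the precursor of ribosomal RNA, had a listed value of 0 in control 2 and knockdowns 1 and 2, and took 14.4% to 18.85% of all FPKM in the other 4. Of the 36 members tested 20 were higher in every library of the first type than in every other library (52.5% of all genes), with a median difference of 0.57, beside 0.62 for all genes. Each type is therefore also given on its own.

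Of the 38 members 36 were tested among 8782 genes, with Ulk2 and Atg4a too low. By limma with Benjamini-Hochberg adjustment 0 rose (0.00% of all genes tested) and 0 fell (0.0342%, 3 genes). At an unadjusted p under 0.05 there were 0 members (2.30% of all genes), and no member's groups were without overlap (0.945% of all genes higher and 1.43% lower). With median scaling 4 members had an unadjusted p under 0.05 (5.9% of all genes), and with library type as a covariate 3 (8.0%). The median log2 fold change was 0.07 for the members and -0.02 for all genes, and 22 of the 36 values were positive (47.5% of all genes). With the covariate the medians were -0.02 and -0.13, and 17 values were positive (32.3% of all genes).

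Map1lc3b was 57.9, 137 and 32.7 FPKM in controls and 136, 127, 97.4 and 90.5 FPKM in knockdowns. Control 2, of the type without Rn45s, was above all 4 knockdowns, so the groups overlapped, and the log2 fold change was 0.79 (SE 0.45, limma adjusted p = 1.0). Among libraries with Rn45s, 2 against 2, the difference was 1.09, and among those without, 1 against 2, it was -0.06. Map1lc3a was 10.6, 17.9 and 10.1 FPKM in controls and 24.1, 22.4, 23.5 and 15.4 FPKM in knockdowns (0.71, SE 0.42, adjusted p = 1.0). Its differences within the types were 0.82 and 0.36, both positive, and only knockdown 4 lay below the highest control.

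Atg12, the partner of Atg5, was 7.29, 14.5 and 7.57 FPKM in controls and 19.5, 18.5, 10.6 and 11.7 FPKM in knockdowns (0.59, SE 0.43, limma adjusted p = 1.0), with 0.52 and 0.37 within the types. Bnip3l, the mitochondrial receptor, was 1.72, 2.68 and 0.810 FPKM and 3.65, 3.51, 1.96 and 2.00 FPKM (0.49, SE 0.38, adjusted p = 1.0), with 0.43 and 0.32 within the types. In both genes the libraries without Rn45s were the highest of their group. Tex264 was 49.6, 37.6 and 30.4 FPKM in controls and 57.7, 35.2, 32.5 and 37.0 FPKM in knockdowns. Its log2 fold change was 0.04 (SE 0.42, 95% interval -0.82 to 0.90), and it was -0.16 and 0.26 within the types, so no direction held.

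**Figure D4:**
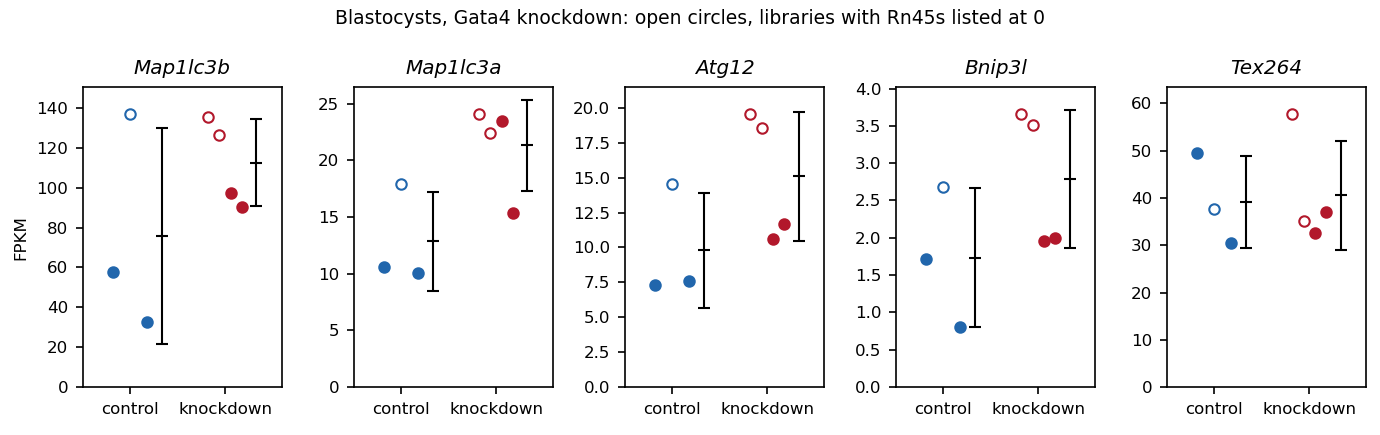
FPKM in every blastocyst library of control (blue, 3) and Gata4 knockdown (red, 4), with mean and SD as bars; open circles are the 3 libraries in which Rn45s is listed at 0. Control 2 (Map1lc3b 137 FPKM) stands above the other controls for the first 4 genes, and among the knockdowns open circles lie above filled ones for Map1lc3b, Atg12 and Bnip3l.

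The rest of the ATG8 family overlapped between the groups. Gabarap was 77.2, 135 and 96.0 FPKM in controls and 149, 129, 107 and 135 FPKM in knockdowns (0.36, SE 0.40). Gabarapl2 was 112, 207 and 86.2 FPKM and 252, 191, 93.7 and 146 FPKM (0.34, SE 0.43). Gabarapl1 was 4.22, 3.80 and 2.73 FPKM and 2.58, 2.73, 4.14 and 4.35 FPKM (-0.05, SE 0.38), a sign that turned with median scaling and with quantile normalization. By role the median log2 fold change was 0.17 for the ULK1 complex, -0.13 for the PI3-kinase complex, 0.07 for membrane supply, 0.08 for conjugation and 0.03 for receptors. Of the 48 genes tested in the 4 further lists none rose (0.00% of all genes tested) or fell (0.0342%). Those called in the Nr5a2 knockdown had values of 0.13 (Tfeb) and 0.32 (Pink1). The trophectoderm sum was 2614 to 3495 FPKM in controls and 2202 to 4471 FPKM in knockdowns, and the primitive endoderm sum 18.4 to 28.3 FPKM and 6.55 to 28.6 FPKM. The primitive endoderm list includes Gata4, the targeted gene, and in knockdown 4 Gata6 alone made up its sum.

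**Figure D5:**
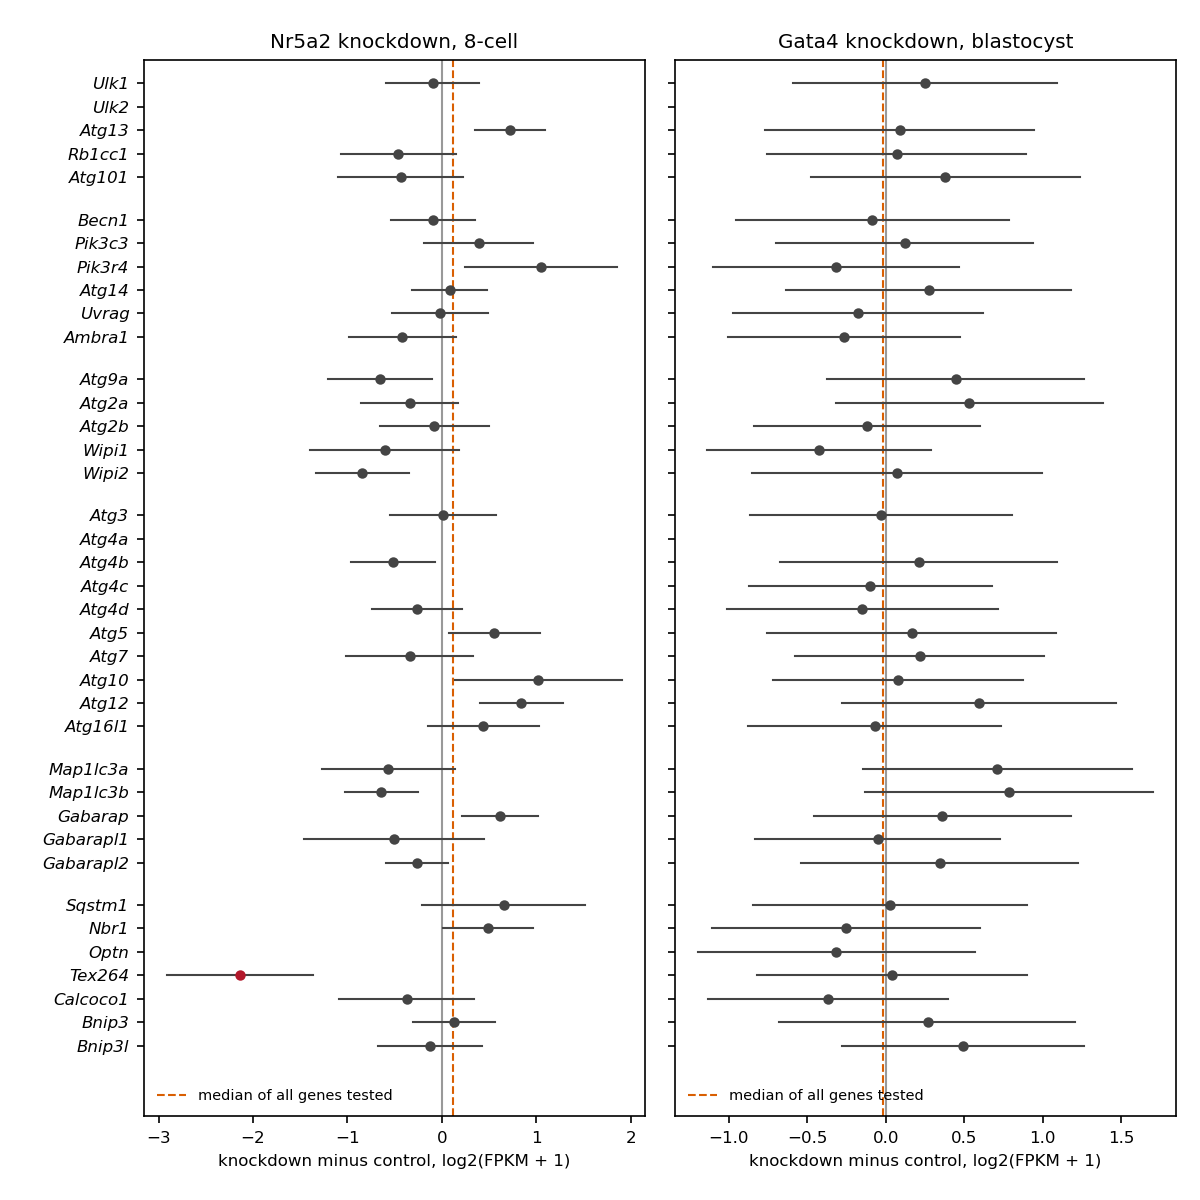
Log2 fold change (knockdown minus control, on log2(FPKM + 1)) with its 95% interval for each member tested, in the Nr5a2 knockdown (left, 34 genes) and the Gata4 knockdown (right, 36 genes), each with its own horizontal scale. Red marks adjusted p under 0.05, which Tex264 alone has, at -2.14 on the left, and dashed lines give the median of all genes tested (0.12 and -0.02).

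The knockdowns were made at different stages, in separate tables, so their values were set side by side and their difference was not tested. Tex264 had -2.14 (95% interval -2.91 to -1.36) in the 8-cell libraries and 0.04 (-0.82 to 0.90) in the blastocysts. Map1lc3b had -0.64 (-1.03 to -0.26) and 0.79 (-0.13 to 1.70), and Wipi2 -0.84 (-1.34 to -0.35) and 0.07 (-0.855 to 0.996). Atg12 was positive in both, with 0.84 (0.40 to 1.28) and 0.59 (-0.28 to 1.46). The intervals in the blastocysts were wide, and the 8-cell values of Wipi2 and Atg12 lay within them. That of Wipi2 was just inside the limit (-0.84 against -0.855). The 8-cell values of Tex264 and Map1lc3b lay outside their blastocyst intervals. Tex264 was listed with its fall known and Map1lc3b was picked by its p-value in these fits, so this is description only. The blastocyst interval of Map1lc3b also spans 2 library types, with differences of 1.09 and -0.06.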

How the data were processed

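The authors deposited FPKM values in 3 tables, which cover 32 samples. The tools named per the submitters' processing notes are CASAVA 1.8, STAR 2.4.0 with the mm9 build and, for 20 of the 32 samples, Cufflinks 2.2.1. How replicates of a stage became 1 value is not given in the sources used here. Samples were grouped by their labels. In both knockdown tables a gene was tested if the number of libraries with 1 FPKM or more was at least the size of the smaller group, and these genes were fitted on log2(FPKM + 1) with limma 3.58.1 (trend, R 4.3.3), with Benjamini-Hochberg adjustment over all genes tested and a threshold of 0.05. A fold change on this scale understates the change of low genes. Stage steps used the fold rule. The fit was tested on simulated data first.

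Any member could be named. Values in every library are given for Tex264, for members called, for the 4 other members with the smallest unadjusted p in each knockdown and for the ATG8 family. For stages, members past the fold rule could be named, and each role group is described by its members with the highest mean and the widest range. Of other pathway genes, those called and up to 4 per list with the widest stage range are named. Nbr1, Sqstm1 and others are named as examples of their group. The members and lists were chosen with earlier results of these data known. In the tables Rubcn is listed as 1700021K19Rik and Retreg1 as Fam134b.

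Alternatives were pseudocounts of 0.1 and 5, no filter on low values, median scaling, quantile normalization, the replicate number as a block, each library left out and, for Gata4, library type as a covariate or libraries with Rn45s only. Median scaling with that covariate was chosen after seeing the data. Near-identical copies were searched with minimap2 2.31-r1302, by aligning the coding sequences of the 38 members to GENCODE M21 transcripts (95% identity over 50% of the length). Figures were drawn with Python 3.11.15 and matplotlib 3.10.9.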

Additional observations from a re-analysis of the deposited data

Results flagged for a closer look

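Map1lc3a in knockdown 4 of the Gata4 table stood apart from its group. It was 15.372 FPKM there and 22.391 to 24.06 FPKM in the other 3 knockdowns. On the log2(FPKM + 1) scale, the gap of knockdown 4 to the nearest of them was 0.838 of the range of the group. That is above the 95% limit of Dixon's test for 4 samples. Taken on FPKM itself the gap is below that limit, so the flag depends on the scale. This group was the 1 of 104 groups of 4 libraries examined that passed the limit on the log2(FPKM + 1) scale. Chance passes about 1 in 20. Control values of Map1lc3a were 10.6, 17.9 and 10.1 FPKM.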

How the results depend on the processing

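For the stage steps, a pseudocount of 0.1 gave 1 member higher and 2 lower from zygote to early 2-cell and 1 higher and 1 lower from 4-cell to 8-cell. Median scaling gave 1 higher and 0 lower from zygote to early 2-cell and 9 higher from 2-cell to 4-cell. It also gave 1 higher (Tex264) from 4-cell to 8-cell, and 1 higher and 12 lower from ICM to mESC. Shares of all genes past the rule were not counted with these settings. In the Nr5a2 knockdown the number of all genes that rose was 73 with a pseudocount of 0.1, 7 with no filter, 75 with median scaling and 68 with quantile normalization, and the number that fell was 35 with a pseudocount of 0.1 and 4 with no filter, where 0 members fell. Leaving out 1 library gave 13 to 177 genes that rose and 8 to 108 that fell, 0 to 2 members that rose and 0 to 2 that fell. The calls were fewest without control 1 and most without knockdown 3, where Atg12 and Gabarap rose and Tex264 and Wipi2 fell. In the Gata4 knockdown the number of all genes that fell was 1 with a pseudocount of 0.1 and 0 with no filter, median scaling, quantile normalization, the covariate, median scaling with the covariate, or libraries with Rn45s only. Leaving out 1 library gave 0 to 5 genes that rose and 1 to 25 that fell, and 0 members in all of these. The value of Tex264 there turned to -0.016 with quantile normalization and -0.16 among libraries with Rn45s. Leaving out 1 library put it between -0.1379 and 0.2198, below 0 without control 3 (-0.12) and without knockdown 1. The cause was not tested.

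Knockdown and control libraries share replicate numbers. Deviations of same-numbered libraries from their group means correlated at -0.108 to 0.0821 for Nr5a2. For Gata4 the correlations were -0.0956, 0.277 and 0.0179 for numbers 1 to 3. Control 2 and knockdown 2, the pair at 0.277, both list Rn45s at 0. The replicate number was used as a block only in an alternative fit. With the replicate block 37 genes rose and 18 fell in the Nr5a2 knockdown, with Tex264 still called (-2.14, limma adjusted p = 0.0276). Pink1 and Tfeb were not called there (limma adjusted p = 0.0514 and 0.0536). In the Gata4 knockdown 4 rose and 14 fell with the block. Read totals were not given, so counting error of low genes such as Gabarapl1 and Wipi1 is unknown.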

Other observations

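The stage table and the controls of the injected embryos hold some autophagy genes at different levels. The tables were normalized separately and the embryos were handled differently, so the values stand side by side with no test. Gabarapl2 was 1072 FPKM in the 8-cell column of the stage table and 113 to 127 FPKM in the 4 injected 8-cell controls. Map1lc3b was 1596 FPKM against 288 to 461 FPKM, and Map1lc3a was 84.6 FPKM against 235 to 864 FPKM. The ratio of Map1lc3a to Map1lc3b was thus 0.0530 in the stage table and 2.85, 1.96, 0.875 and 0.730 in controls 1 to 4. Bnip3l was 109 FPKM against 14.2 to 24.8 FPKM, and Atg9a 39.9 FPKM against 55.3 to 111 FPKM. Gabarap, at 72.6 FPKM against 69.9 to 88.5 FPKM, and Becn1, at 19.6 FPKM against 17.1 to 23.0 FPKM, lay within the range of the controls.

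Within the 8-cell knockdown table the ratio of Gabarap to Gabarapl2 was 0.731, 0.656, 0.650 and 0.620 in controls 1 to 4 and 1.45, 1.51, 0.774 and 1.32 in Nr5a2 knockdowns 1 to 4, so the groups did not overlap. This ratio was computed after the values of both genes had been seen, and it was not tested.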
